A study of Mus musculus with 9 samples.

Results

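Amino acid transporters are membrane carriers that move amino acids and close relatives, such as taurine and creatine, across the cell surface or the lysosomal membrane. The genes described here carry symbols of the mouse families Slc1a, Slc3a, Slc6a, Slc7a, Slc36a, Slc38a and Slc43a, with Slc7a11 left out, and had at least 10 counts over all 9 libraries. Of 60 symbols of these families in the count table, 35 met the minimum, out of 55453 rows in all. Of the 35, 30 passed the filter on low counts and were tested, and 5 did not, among them Slc1a1, Slc3a1, Slc6a17 and Slc7a3. In 26 of the 30, every library of all 3 groups lay above the filter's level of 0.202 CPM, the count scaled to a common library size. Slc38a1 and Slc6a2 did so only in the fed 24 h group, Slc6a12 in the fed 24 h and unfed groups, and Slc7a8 in no whole group.

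The counts came from ST2 cells, a stromal line established from mouse bone marrow that can form osteoblasts, labelled as wild type. The fed 24 h group held 3 libraries of ST2 cells that had been given dye-stained, end-stage human neutrophils for 24 h and sorted by flow cytometry for uptake of the dye. The fed 3 h group held 3 libraries of cells fed in the same way and sorted for uptake after 3 h. The unfed group held 3 libraries of ST2 cells without neutrophils, collected at 24 h. No unfed cells at 3 h were analysed here, so feeding and time cannot be told apart in the 3 h comparison. Feeding and sorting for uptake cannot be told apart in either. All groups are the same cell line, and the labels do not state that the replicates were separate cultures, so p-values measure the spread between these libraries, which may be technical.

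Many of these carriers work in pairs. Slc3a2, the 4F2 heavy chain (CD98), brings light chains of the Slc7 family to the cell surface, among them Slc7a5 (LAT1), which takes up leucine and other large neutral amino acids in exchange for glutamine. Imported leucine and arginine activate the growth-promoting kinase complex mTORC1 at the lysosome, and the transcription factor ATF4 raises many carrier genes when amino acids run short.

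Total counts ran from 44442664 to 55971275 per library, and the 35 genes held 0.260 to 0.267% of them in the fed 24 h libraries, 0.275 to 0.286% in the fed 3 h libraries and 0.269 to 0.273% in the unfed libraries. All 9 stromal markers looked for (Col1a1, Col1a2, Col3a1, Cxcl12, Pdgfrb, Vcam1, Prrx1, Kitl and Runx2) passed the filter. Their summed level was 34000 to 35700 CPM in fed 24 h cells, 27400 to 28200 CPM in fed 3 h cells and 30600 to 32900 CPM in unfed cells. The markers were split between fed 3 h and unfed cells, with the largest difference in Cxcl12 (means of 2275 and 5712 CPM). Col1a2, Pdgfrb, Vcam1 and Kitl (167 and 412 CPM) were also lower on average in fed 3 h cells. Col1a1 (13255 and 12568 CPM), Col3a1 (1309 and 970 CPM) and Prrx1 were higher on average. Runx2 differed by less than its spread (70.1 and 69.6 CPM). Of 12 mouse neutrophil markers 1 (Camp) passed the filter, S100a9 and Ngp were at 0 counts, and the sum lay at 3.43 to 4.33, 0.755 to 1.44 and 2.38 to 2.95 CPM in fed 24 h, fed 3 h and unfed cells. The fed neutrophils were human and the counts are per mouse gene, so these values cannot show how much neutrophil RNA was carried along. Of 9 macrophage markers 3 (Cd14, Lyz2 and Csf1r) passed, Adgre1 and Tyrobp were at 0, and the sum was 23.6 to 26.6, 25.9 to 27.4 and 22.1 to 24.4 CPM in the same order of groups. Of 6 endothelial markers 1 passed, Kdr was at 0, and no library summed to more than 0.658 CPM. Mitochondrially encoded genes took 1.78 to 2.22% of counts in fed 24 h cells, 1.12 to 1.58% in fed 3 h cells and 1.48 to 1.61% in unfed cells. The part of these shifts in the results below was not tested, and in bulk libraries fewer cells of a type and less RNA per cell cannot be told apart.

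Per length, ST2 cells carried most transporter RNA in 5 genes. On the scale of CPM per kilobase of exon (RPKM), Slc7a5, Slc38a2, Slc3a2, Slc6a6 and Slc38a10 together held 66.5 to 66.7% of the summed level of all 35 genes in fed 24 h libraries, 67.6 to 68.2% in fed 3 h libraries and 65.6 to 67.3% in unfed libraries. The summed level was 425, 440.2 and 416 RPKM in the fed 24 h libraries, 548, 513 and 517 RPKM in the fed 3 h libraries, and 449, 470 and 466 RPKM in the unfed libraries. The 3 groups did not overlap, with the fed 3 h libraries highest and the fed 24 h libraries lowest. In unfed cells Slc7a5 led at 89.0 RPKM, followed by the glutamine carrier Slc38a2 at 68.0 RPKM, Slc3a2 at 53.7 RPKM and the taurine carrier Slc6a6 at 53.3 RPKM. The last pair differed by less than their spread. In fed 3 h cells Slc7a5 reached 128 RPKM and Slc3a2 83.0 RPKM, the first and second places. In fed 24 h cells Slc38a2 came first at 73.0 RPKM and Slc7a5 stood at 56.9 RPKM.

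**Figure D1:**
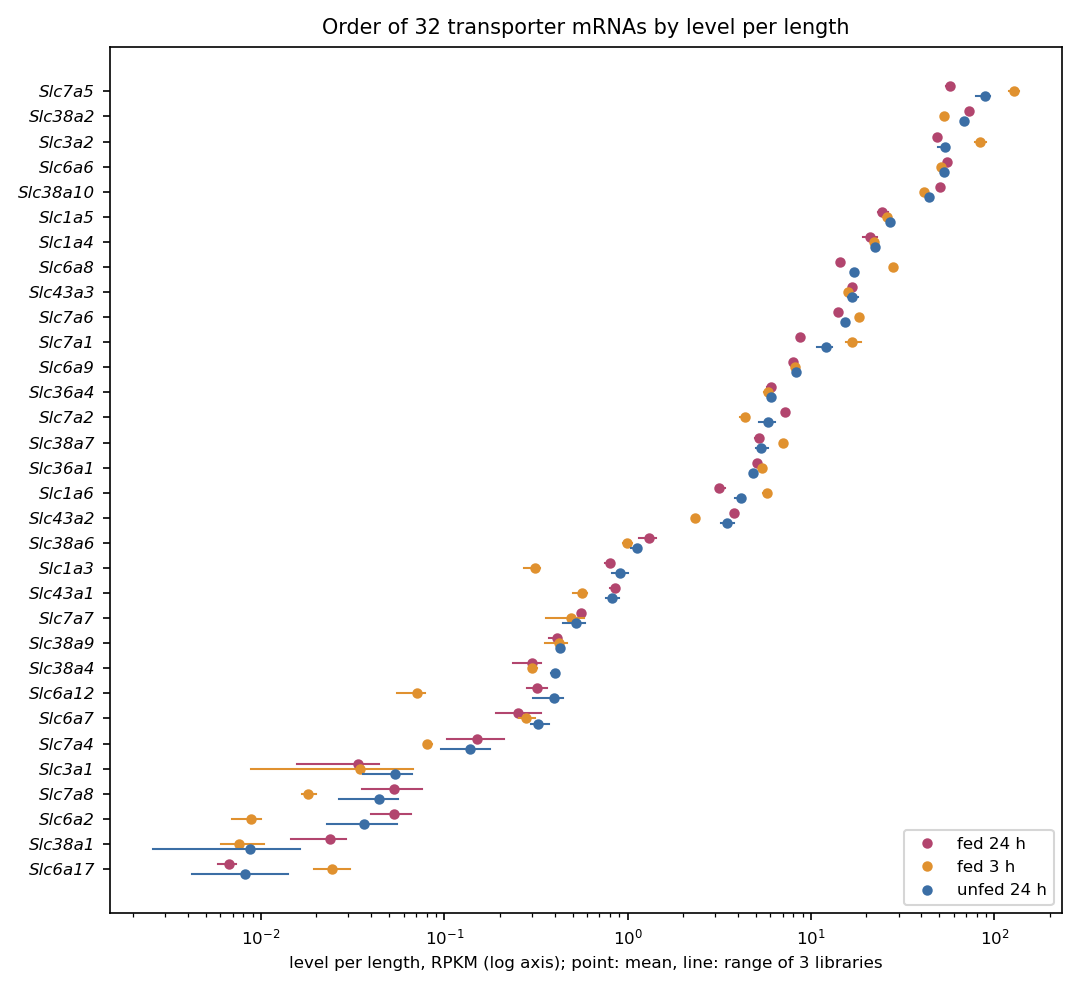
Level per length (RPKM, log axis) of 32 of the 35 transporter genes by group, with points for the mean and lines for the range of 3 libraries. The plot leaves out 3 genes that had a library at 0, among them Slc1a1 and Slc7a3. Slc7a5, Slc38a2, Slc3a2, Slc6a6 and Slc38a10 sit at the top in every group.

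In fed 24 h cells against unfed cells, Slc7a5 and the arginine and lysine carrier Slc7a1 fell by 0.65 and 0.48 on the log2 scale, while the related Slc7a2 rose by 0.32. In all, 3 of the 30 tested genes were called higher (Slc7a2, Slc38a1 and Slc38a10; 10%, against 14.9% of all 13568 genes tested) and 5 were called lower (Slc1a6, Slc6a8, Slc7a1, Slc7a5 and Slc7a6; 16.7%, against 15.9%), or 26.7% in either direction against 30.8%. These shares lie near those of all genes. Calls are at a Benjamini-Hochberg adjusted p under 0.05 in the quasi-likelihood F-test of edgeR. Of the 30, 2 were called with a log2 change of at least 0.5 in size (Slc7a5 and Slc38a1), against 4.69% of all genes, and Slc38a1 passed the filter through the fed 24 h group in which it was higher. The libraries of the groups did not overlap for 12 of the 30, against 43.2% of all genes.

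In fed 3 h cells against unfed cells, the transporters moved in both directions. The surface pair Slc7a5 and Slc3a2, Slc7a1 and the creatine carrier Slc6a8 rose, and the uniporters Slc43a1 and Slc43a2, Slc38a2 and the glutamate carrier Slc1a3 fell. Of the 30, 8 were called higher (26.7%, background 25.1%) and 8 lower (26.7%, background 25.5%), or 53.3% in either direction against 50.6% of all genes. These shares lie near those of all genes. With a log2 change of at least 0.5 in size 9 genes were called, a share of 30%, and the background is 15.2%. Of these 9, Slc6a2, Slc6a12 and Slc7a8 rest on few counts and passed the filter through the groups where they were higher, so the count is given as a description. The libraries did not overlap for 19 genes, against 58.2% of all genes.

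Between the fed groups, 13 of the 30 were called higher in fed 24 h cells than in fed 3 h cells (43.3%, background 30.8%) and 7 were called lower (23.3%, background 30.2%), or 66.7% in either direction against 60.9% of all genes. A log2 change of at least 0.5 in size was called for 14, against 24.2% of all genes, and the libraries did not overlap for 21, against 65.9%. Among both the 13 and the 14, Slc38a1, Slc6a2, Slc6a12 and Slc7a8 passed the filter through groups other than fed 3 h, where they were higher, and Slc7a4 rests on few counts. With a stricter filter on low counts, which tested 22 of the 30, 8 were called higher in fed 24 h cells, so these counts are given as a description. The median log2 change of the 30 was -0.02 in fed 24 h against unfed cells, -0.08 in fed 3 h against unfed cells and 0.07 in fed 24 h against fed 3 h cells. Over all genes it was -0.00, -0.01 and -0.00 in the same comparisons. The median size of the change, without its sign, was 0.14, 0.38 and 0.45, and over all genes 0.14, 0.22 and 0.28. These medians include Slc38a1, Slc6a2, Slc6a12 and Slc7a8, with large changes on few counts, so they too are given as a description. The comparisons share libraries, the unfed libraries standing in both comparisons with unfed cells, so they are not independent.

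**Figure D2:**
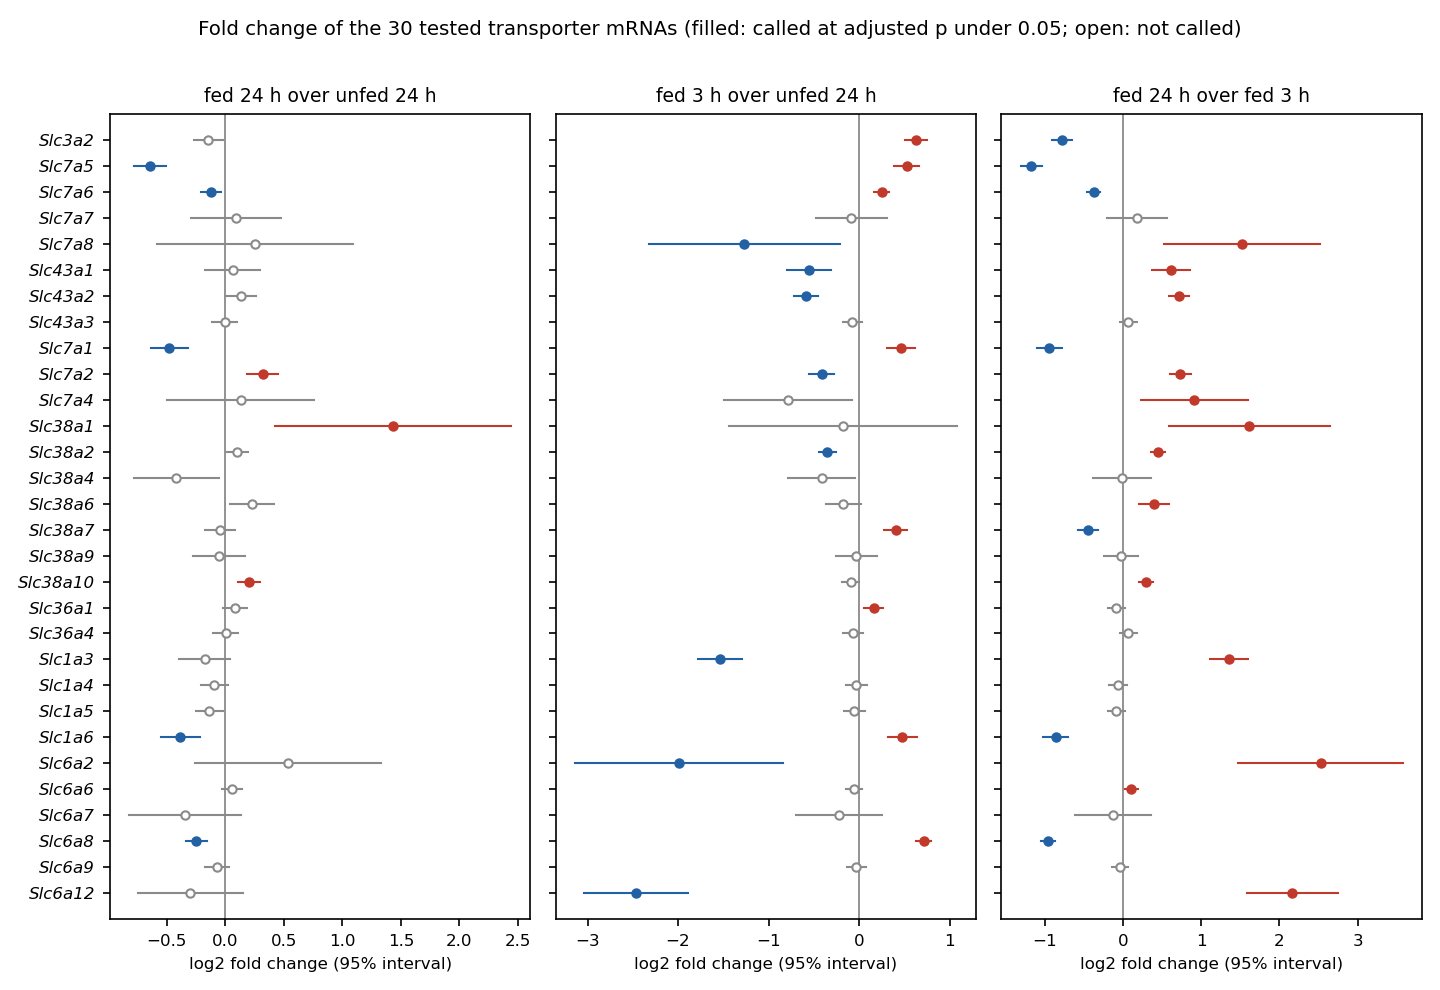
Log2 fold change of each of the 30 tested transporter genes in fed 24 h against unfed cells, fed 3 h against unfed cells and fed 24 h against fed 3 h cells, with bars for the 95% confidence interval and filled points for an edgeR adjusted p under 0.05. Slc7a5 lies at -0.65 in the first comparison and 0.53 in the second, and Slc1a3 at -1.53 in the second.

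The heavy chain Slc3a2 (chromosome 19, 8706882 to 8723369, minus strand, GRCm38) was high in the fed 3 h libraries alone. Slc3a2 had 170.1, 176 and 167 CPM in fed 24 h cells, 318, 284 and 277 CPM in fed 3 h cells and 174, 198 and 196 CPM in unfed cells. Every fed 3 h library lay above every other library, a log2 change of 0.63 (SE 0.0581, edgeR adjusted p 3.81e-07) against unfed cells. In fed 24 h against unfed cells the Slc3a2 change was -0.15 (SE 0.0582, edgeR adjusted p 0.0643), which did not pass, and over 18 other settings its adjusted p ran from 0.00765 to 0.210. Among those settings, leaving out unfed replicate 1 gave -0.20 and leaving out fed 3 h replicate 1 or the filter also brought it past the threshold.

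Its light chain Slc7a5 (chromosome 8, 121881150 to 121907694, minus strand) moved at both times. Slc7a5 had 208, 224 and 201 CPM in fed 24 h cells, 503, 447 and 475 CPM in fed 3 h cells and 295, 345 and 349.9 CPM in unfed cells. No group overlapped another: the fed 3 h libraries were highest and the fed 24 h libraries lowest, below unfed. The log2 change of Slc7a5 was 0.53 in fed 3 h cells (SE 0.0641, edgeR adjusted p 6.58e-06) and -0.65 in fed 24 h cells (SE 0.0645, edgeR adjusted p 9.45e-06), each against unfed cells. Between fed 24 h and fed 3 h cells it was -1.17 (SE 0.0649, edgeR adjusted p 6.64e-10).

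Slc7a6 (y+LAT2), a light chain that exchanges cationic for neutral amino acids, kept a tighter range. Slc7a6 had 64.3, 64.3 and 63.6 CPM in fed 24 h cells, 83.8, 82.0 and 83.3 CPM in fed 3 h cells and 68.7, 71.0 and 69.4 CPM in unfed cells. Its log2 change in fed 3 h against unfed cells was 0.25 (SE 0.0394, edgeR adjusted p 7.25e-05). In fed 24 h against unfed cells it was -0.12 (SE 0.0396, edgeR adjusted p 0.0282). That call was lost in 7 of 18 other settings, with adjusted p from 0.0248 to 0.124 over them. Those 7 were upper-quartile scaling, no filter, the replicate block and leaving out fed 24 h replicate 1, fed 24 h replicate 3, unfed replicate 2 or unfed replicate 3. The light chains Slc7a7 (y+LAT1) and Slc7a8 (LAT2) were low. Slc7a7 averaged 1.84, 1.63 and 1.73 CPM in fed 24 h, fed 3 h and unfed cells and was not called in any comparison. Slc7a8 had 42, 13 and 31 counts summed over the 3 libraries of the same groups. Slc7a8 was called lower in fed 3 h than in unfed cells (log2 change -1.27, edgeR adjusted p 0.0435), with adjusted p from 0.0235 to 0.147 over 16 other settings, 9 of which lost the call, among them those without any 1 of the fed 3 h libraries, without fed 24 h replicate 3 and without unfed replicate 1 or 2.

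The ratio of light to heavy chain counts within a library does not depend on scaling. The Slc7a5 to Slc3a2 count ratio was 1.22, 1.27 and 1.20 in fed 24 h libraries, 1.58, 1.57 and 1.72 in fed 3 h libraries and 1.696, 1.74 and 1.79 in unfed libraries. The fed 24 h ratios lay below all others, while those of fed 3 h and unfed cells overlapped. On the log2 scale the ratio differed by -0.50 in fed 24 h against unfed cells (two-sided exact permutation p 0.1), by -0.10 in fed 3 h against unfed cells (exact permutation p 0.2) and by -0.40 between the fed groups (exact permutation p 0.1). With 3 libraries against 3 no exact test can go below 0.1. The Slc7a6 to Slc3a2 count ratio averaged 0.375 ± 0.00823 in fed 24 h cells, 0.285 ± 0.0192 in fed 3 h cells and 0.369 ± 0.0220 in unfed cells (SD, n = 3 each), lowest in every fed 3 h library.

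**Figure D3:**
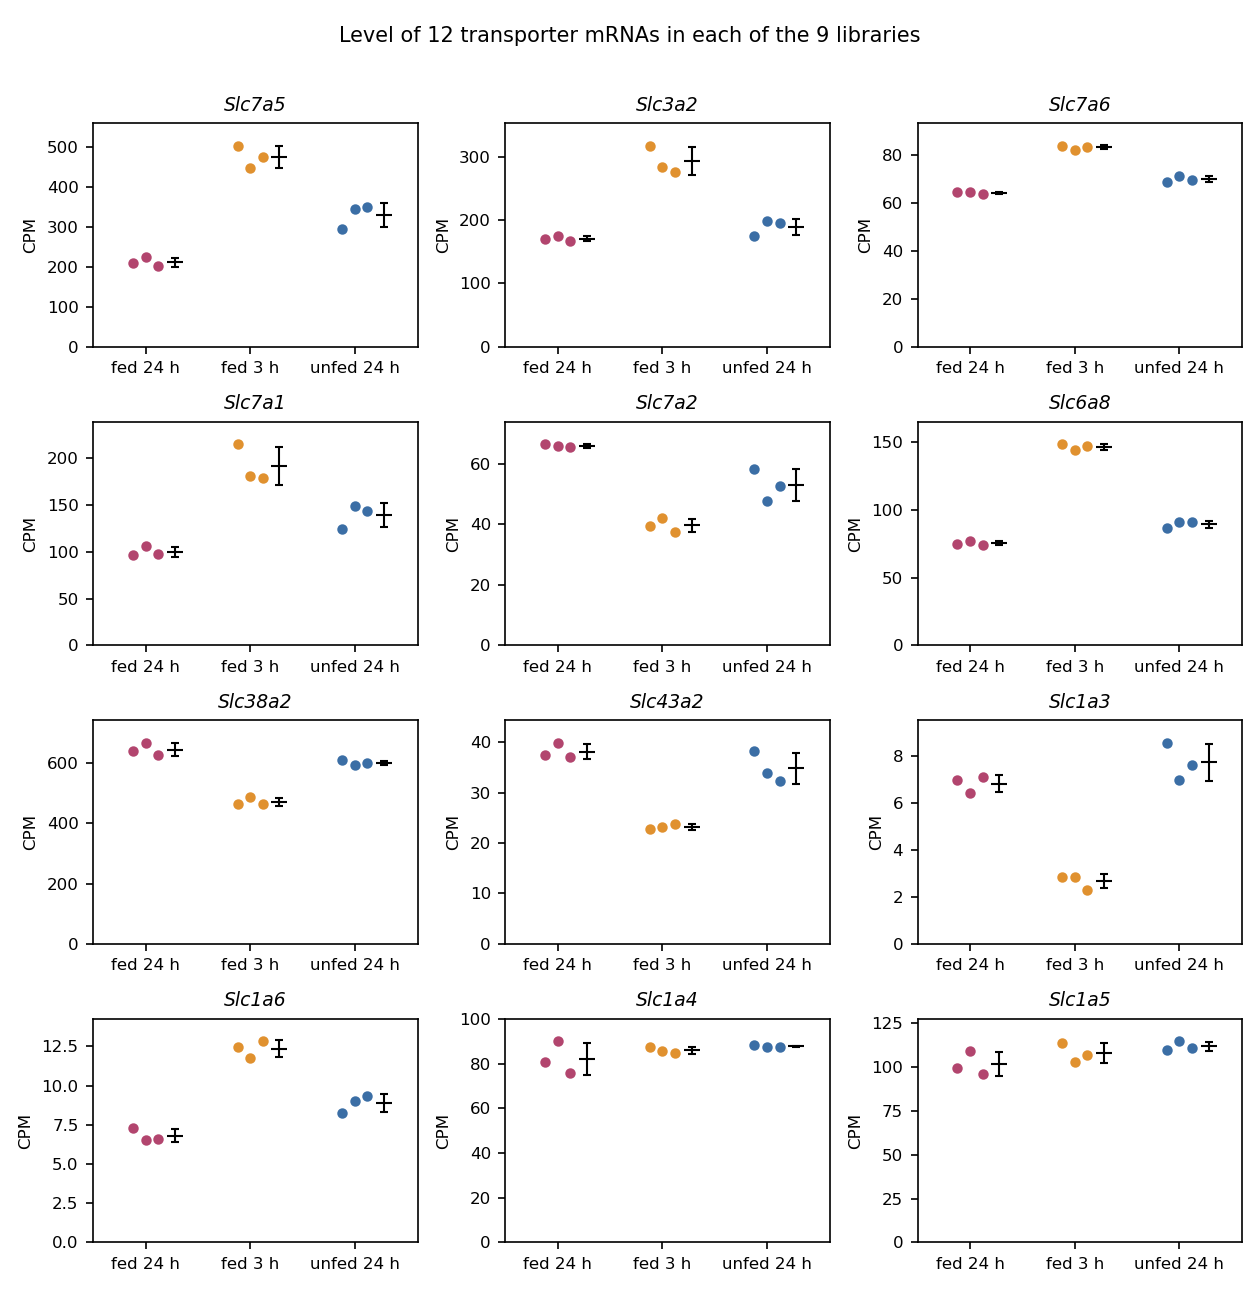
CPM of 12 transporter genes in each library, with points for libraries and bars for the mean ± SD of 3 in fed 24 h, fed 3 h and unfed cells. Slc7a5, Slc3a2, Slc7a1 and Slc6a8 are highest in the fed 3 h libraries, and Slc7a2, Slc38a2, Slc43a2 and Slc1a3 are lowest there.

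The cationic carriers Slc7a1 (CAT1) and Slc7a2 (CAT2) moved in opposite directions at each time. Slc7a1 (chromosome 5, 148327410 to 148399904, minus strand), the widely expressed arginine and lysine carrier, had 96.6, 106 and 97.2 CPM in fed 24 h cells, 215, 181 and 179 CPM in fed 3 h cells and 125, 149 and 144 CPM in unfed cells. Its 3 groups did not overlap, in the same order as for Slc7a5. The log2 change of Slc7a1 against unfed cells was 0.46 in fed 3 h cells (SE 0.0732, edgeR adjusted p 8.52e-05) and -0.48 in fed 24 h cells (SE 0.0739, edgeR adjusted p 0.000260). Slc7a2 (chromosome 8, 40862396 to 40922308), known for arginine uptake in liver and in activated macrophages, had 66.4, 65.7 and 65.3 CPM in fed 24 h cells, 39.5, 41.9 and 37.5 CPM in fed 3 h cells and 58.3, 47.8 and 52.4 CPM in unfed cells. These groups did not overlap either, but here the fed 24 h libraries were highest and the fed 3 h libraries lowest. The log2 change of Slc7a2 against unfed cells was -0.41 in fed 3 h cells (SE 0.0638, edgeR adjusted p 6.30e-05) and 0.32 in fed 24 h cells (SE 0.0624, edgeR adjusted p 0.00154). A share of 6.95% of its exon length overlaps the gene Gm26584 on the opposite strand.

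The Slc7a1 to Slc7a2 count ratio was 1.45, 1.61 and 1.49 in fed 24 h libraries, 5.44, 4.33 and 4.77 in fed 3 h libraries and 2.14, 3.13 and 2.75 in unfed libraries. The 3 groups were apart in all 3 pairs. The log2 difference in the ratio was -0.80 in fed 24 h against unfed cells, 0.87 in fed 3 h against unfed cells and -1.67 in fed 24 h against fed 3 h cells, each with the smallest exact permutation p the design allows, 0.1. Slc7a4, a relative of these carriers with no settled transport function, averaged 0.628, 0.334 and 0.574 CPM in fed 24 h, fed 3 h and unfed cells. Slc7a4 was called higher in fed 24 h than in fed 3 h cells (log2 change 0.91, edgeR adjusted p 0.0224), with adjusted p from 0.00902 to 0.153 over 17 other settings. The call was lost without fed 24 h replicate 2 (0.59) and without fed 3 h replicate 2 or 3 (0.89 and 0.88). In fed 3 h against unfed cells the Slc7a4 change was -0.78 (edgeR adjusted p 0.0606), which did not pass. Over 17 other settings that adjusted p ran from 0.0306 to 0.240.

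**Figure D4:**
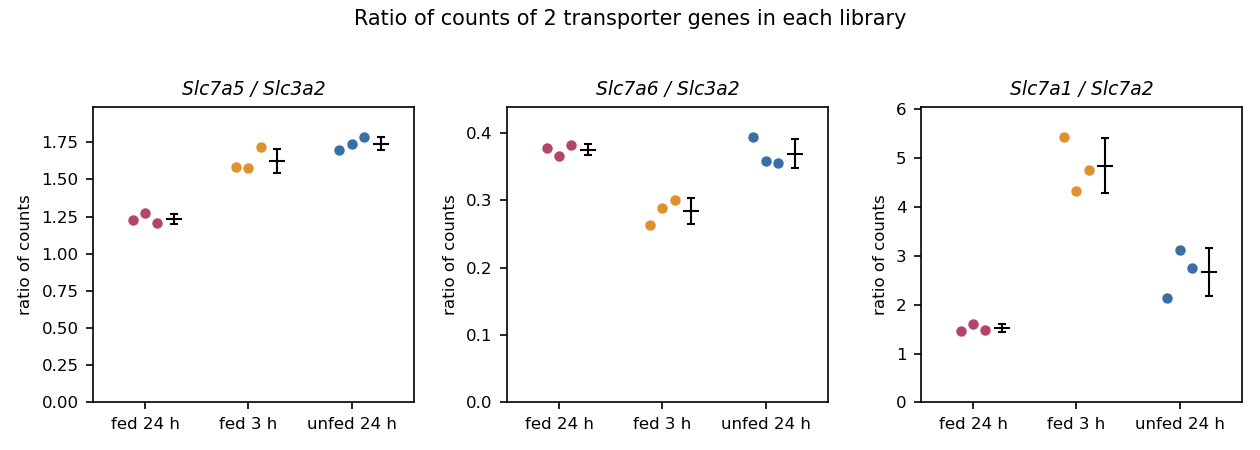
Ratios of counts between transporter genes within a library, with points for libraries and bars for the mean ± SD of 3 in fed 24 h, fed 3 h and unfed cells. The Slc7a5 to Slc3a2 ratio is lowest in the fed 24 h libraries, at 1.20 to 1.27, and the Slc7a1 to Slc7a2 ratio is highest in the fed 3 h libraries, at 4.33 to 5.44.

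Promoters of Slc3a2 and Slc7a1, both called higher in fed 3 h cells, and of Slc1a4, which was not called, are shown because carrier genes of this kind can respond to ATF4. They are the RefSeq windows of assembly GRCm38.p6 from 250 bases before to 50 bases after a start site, all on the minus strand and read 5′ to 3′, at chr19:8713848-8714147, chr5:148399855-148400154 and chr11:20332664-20332963. Capitals mark the letters TGATGNAA, the core of the C/EBP-ATF response element, on either strand (TTNCATCA on the strand shown).
Slc3a2: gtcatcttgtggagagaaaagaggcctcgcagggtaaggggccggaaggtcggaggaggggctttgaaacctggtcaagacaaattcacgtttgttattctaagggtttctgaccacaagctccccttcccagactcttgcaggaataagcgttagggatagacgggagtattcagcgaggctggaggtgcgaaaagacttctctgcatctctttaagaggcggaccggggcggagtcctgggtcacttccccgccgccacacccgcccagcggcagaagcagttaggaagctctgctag
Slc7a1: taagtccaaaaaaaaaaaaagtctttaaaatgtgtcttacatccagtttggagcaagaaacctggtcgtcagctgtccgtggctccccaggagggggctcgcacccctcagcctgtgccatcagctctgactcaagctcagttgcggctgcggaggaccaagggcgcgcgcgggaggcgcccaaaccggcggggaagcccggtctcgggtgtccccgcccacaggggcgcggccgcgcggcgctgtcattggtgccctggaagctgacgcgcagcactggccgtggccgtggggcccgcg
Slc1a4: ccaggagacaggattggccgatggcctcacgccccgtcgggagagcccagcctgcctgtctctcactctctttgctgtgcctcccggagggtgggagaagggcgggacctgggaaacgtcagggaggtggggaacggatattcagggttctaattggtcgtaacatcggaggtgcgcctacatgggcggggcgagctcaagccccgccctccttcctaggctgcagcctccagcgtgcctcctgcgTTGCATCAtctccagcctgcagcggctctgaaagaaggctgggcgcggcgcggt
The letters stand in the Slc1a4 window, on the opposite strand, beginning 4 bases before the start site, and are not in the windows of Slc3a2 and Slc7a1 shown. Windows were at hand for 23 of the 35 genes, and 3 of their 39 windows held the letters (7.69%), belonging to Slc1a4 and to overlapping windows of Slc7a7. Of all 32851 promoters 3.97% held them, of the promoters of tested genes 2.25%, and of 28 promoters of a list of ATF4 response genes 28.6%.

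The uniporters of the Slc43 family, which let branched-chain and other large neutral amino acids pass down their gradient, were low in fed 3 h cells. Slc43a2 (LAT4; chromosome 11, 75531694 to 75577575) had 37.6, 39.9 and 37.0 CPM in fed 24 h cells, 22.7, 23.2 and 23.9 CPM in fed 3 h cells and 38.3, 33.9 and 32.3 CPM in unfed cells. The fed 3 h libraries of Slc43a2 lay below all others, a log2 change of -0.58 against unfed cells (SE 0.0623, edgeR adjusted p 1.74e-06). Its change in fed 24 h against unfed cells was 0.13 (edgeR adjusted p 0.113) and was called in 1 of 18 other settings, that without unfed replicate 1 (0.21). Slc43a1 (LAT3) had 5.06, 4.57 and 5.05 CPM in fed 24 h cells, 2.87, 3.44 and 3.30 CPM in fed 3 h cells and 5.15, 4.38 and 4.54 CPM in unfed cells. Its log2 change in fed 3 h against unfed cells was -0.55 (SE 0.115, edgeR adjusted p 0.000915). Slc43a3, a carrier of purine nucleobases in the same family, averaged 74.6 ± 1.11, 71.1 ± 2.44 and 74.8 ± 4.97 CPM in fed 24 h, fed 3 h and unfed cells (SD, n = 3 each) and was not called in any comparison.

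Among the sodium-coupled neutral carriers of the Slc38 family, Slc38a2 (SNAT2; chromosome 15, 96687392 to 96699730), known to be induced when cells lack amino acids, was the most abundant per length. Slc38a2 had 641, 668 and 626 CPM in fed 24 h cells, 464, 487 and 465 CPM in fed 3 h cells and 609, 595 and 599 CPM in unfed cells. The fed 3 h libraries were lowest, a log2 change of -0.35 against unfed cells (SE 0.0422, edgeR adjusted p 5.88e-06). The fed 24 h libraries lay above the unfed ones, by 0.10 (SE 0.0421, edgeR adjusted p 0.0813), which did not pass. Over 18 other settings that adjusted p ran from 0.0361 to 0.230, and 3 of them made the call. Slc38a10, the second most abundant of the family, had 328, 326 and 323 CPM in fed 24 h cells, 271, 256 and 269.7 CPM in fed 3 h cells and 275, 298 and 276 CPM in unfed cells. Its fed 24 h libraries were highest, a log2 change of 0.20 against unfed cells (SE 0.0440, edgeR adjusted p 0.00280). A share of 5.72% of the Slc38a10 exon length overlaps another gene, Gm11769.

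Slc38a7, which releases glutamine and asparagine from lysosomes, went the other way from Slc38a2 at 3 h. Slc38a7 had 21.9, 22.0 and 20.4 CPM in fed 24 h cells, 29.5, 29.0 and 29.1 CPM in fed 3 h cells and 24.1, 21.4 and 20.8 CPM in unfed cells. Its log2 change in fed 3 h against unfed cells was 0.40 (SE 0.0595, edgeR adjusted p 4.17e-05), with all fed 3 h libraries above the rest. Slc38a9, the lysosomal arginine sensor of mTORC1, had 7.22, 7.25 and 6.19 CPM in fed 24 h cells, 5.91, 7.83 and 7.27 CPM in fed 3 h cells and 7.31, 7.05 and 7.09 CPM in unfed cells. The groups of Slc38a9 overlapped and it was not called in any comparison, with a 95% interval of -0.28 to 0.17 for its log2 change in fed 24 h against unfed cells. Slc38a4 (SNAT4), an imprinted carrier known from liver and placenta, had 1.40, 1.43 and 1.01 CPM in fed 24 h cells, 1.36, 1.24 and 1.26 CPM in fed 3 h cells and 1.62, 1.79 and 1.73 CPM in unfed cells. Both fed groups lay below unfed cells for Slc38a4, but the changes of -0.42 and -0.41 did not pass (edgeR adjusted p 0.0741 and 0.0583), and the 3 h change passed in 3 of 17 other settings. Slc38a6 averaged 10.2 ± 1.10, 7.72 ± 0.471 and 8.71 ± 0.511 CPM in fed 24 h, fed 3 h and unfed cells (SD, n = 3 each) and was called between the fed groups alone (log2 change 0.40, edgeR adjusted p 0.00114). Without fed 24 h replicate 2 it was also called higher in fed 24 h than in unfed cells, by 0.31.

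Slc38a1 (SNAT1), a glutamine carrier abundant in brain, had few counts. It had 0.498, 0.250 and 0.488 CPM in fed 24 h cells, 0.105, 0.109 and 0.180 CPM in fed 3 h cells and 0.280, 0.123 and 0.0445 CPM in unfed cells, or 65, 19 and 21 counts summed over the same groups. The fed 24 h and unfed libraries overlapped. The log2 change of Slc38a1 in fed 24 h against unfed cells was 1.43 (SE 0.474, edgeR adjusted p 0.0317). Leaving out fed 24 h replicate 1 or 3, or unfed replicate 2 or 3, lost the call, and over 16 other settings the change ran from 1.02 to 2.23.

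The proton-coupled carriers Slc36a1 and Slc36a4 changed little. Slc36a1 (PAT1), which exports small neutral amino acids from lysosomes and takes part in mTORC1 signalling, had 28.5, 29.1 and 27.9 CPM in fed 24 h cells, 29.8, 31.6 and 29.2 CPM in fed 3 h cells and 27.4, 26.8 and 26.7 CPM in unfed cells. Its log2 change in fed 3 h against unfed cells was 0.16 (SE 0.0495, edgeR adjusted p 0.0121), and without fed 3 h replicate 2 it was 0.13 and not called. Over all 18 other settings that adjusted p ran from 0.0103 to 0.0664. Slc36a4 (PAT4), a carrier of proline and tryptophan, had 37.8, 39.6 and 41.5 CPM in fed 24 h cells, 39.1, 38.7 and 36.01 CPM in fed 3 h cells and 40.8, 38.5 and 39.7 CPM in unfed cells. The Slc36a4 groups overlapped, and its interval of log2 change was -0.11 to 0.11 in fed 24 h and -0.18 to 0.05 in fed 3 h against unfed cells.

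Of the Slc1 family, both tested glutamate carriers changed and the neutral carriers did not pass the test. Slc1a3 (GLAST; chromosome 15, 8634124 to 8710764, minus strand), known from glia, had 6.98, 6.43 and 7.11 CPM in fed 24 h cells, 2.85, 2.85 and 2.32 CPM in fed 3 h cells and 8.58, 7.01 and 7.63 CPM in unfed cells. The fed 3 h libraries were far below the rest, a log2 change of -1.53 against unfed cells (SE 0.114, edgeR adjusted p 3.69e-08). Slc1a6 (EAAT4), known from Purkinje cells of the cerebellum, had 7.28, 6.54 and 6.61 CPM in fed 24 h cells, 12.5, 11.8 and 12.8 CPM in fed 3 h cells and 8.24, 9.04 and 9.36 CPM in unfed cells. Its groups did not overlap, in the order seen for Slc7a5, with log2 changes against unfed cells of 0.48 in fed 3 h cells (edgeR adjusted p 9.24e-05) and -0.38 in fed 24 h cells (edgeR adjusted p 0.00217).

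Slc1a5 (ASCT2), the main glutamine exchanger of many growing cells, had 99.3, 109 and 96.1 CPM in fed 24 h cells, 114, 103 and 107 CPM in fed 3 h cells and 109.7, 115 and 111 CPM in unfed cells. Slc1a4 (ASCT1), which exchanges alanine, serine and cysteine, had 80.8, 90.1 and 75.7 CPM in fed 24 h cells, 87.6, 85.8 and 84.7 CPM in fed 3 h cells and 88.3, 87.7 and 87.5 CPM in unfed cells. Neither was called in any comparison, and fed 24 h replicate 2 was the highest of its group for both. Without that library, the log2 changes in fed 24 h against unfed cells were -0.19 for Slc1a5 and -0.17 for Slc1a4, against -0.14 and -0.09 with it, and both were called lower (edgeR adjusted p 0.00953 and 0.0143). Over all 18 settings the adjusted p reached 0.240 for Slc1a5 and 0.673 for Slc1a4. The Slc1a5 to Slc1a4 count ratio was 1.24, 1.25 and 1.27 on average in fed 24 h, fed 3 h and unfed cells and did not differ beyond its spread (smallest exact permutation p of 3 comparisons 0.3).

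Of the sodium- and chloride-coupled Slc6 family, the creatine carrier Slc6a8 (chromosome X, 73673150 to 73682502) moved with Slc7a5. Slc6a8 had 75.0, 76.8 and 73.8 CPM in fed 24 h cells, 148, 144 and 147 CPM in fed 3 h cells and 86.2, 91.0 and 90.7 CPM in unfed cells. All fed 3 h libraries were above, and all fed 24 h libraries below, the unfed ones. Its log2 change against unfed cells was 0.71 in fed 3 h cells (SE 0.0406, edgeR adjusted p 1.89e-09) and -0.25 in fed 24 h cells (SE 0.0409, edgeR adjusted p 0.000445). The taurine carrier Slc6a6, the most abundant of the family, had 465, 474 and 464 CPM in fed 24 h cells, 448, 431 and 423 CPM in fed 3 h cells and 457, 448 and 448 CPM in unfed cells. Slc6a6 was not called against unfed cells at either time and was called between the fed groups (log2 change 0.11, edgeR adjusted p 0.0288, from 0.00451 to 0.116 over 18 other settings), a call lost with no filter, without fed 24 h replicate 2 and when either replicate 2 or replicate 3 of the fed 3 h group was left out. The glycine carrier Slc6a9 (GLYT1) had 40.1, 42.1 and 40.0 CPM in fed 24 h cells, 43.1, 41.9 and 40.4 CPM in fed 3 h cells and 44.6, 41.9 and 41.5 CPM in unfed cells. Slc6a9 was not called in any comparison, and 27.8% of its exon length overlaps Ccdc24 on the opposite strand.

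Some low members of the Slc6 family had large changes on few counts. Slc6a12, a betaine and GABA carrier known for osmotic regulation in kidney, averaged 0.976 ± 0.125, 0.216 ± 0.0415 and 1.21 ± 0.244 CPM in fed 24 h, fed 3 h and unfed cells (SD, n = 3 each). Its log2 change in fed 3 h against unfed cells was -2.47 (SE 0.271, edgeR adjusted p 2.30e-06), with all fed 3 h libraries below the rest. Slc6a2, the noradrenaline carrier of sympathetic neurons, had 53, 8 and 32 counts summed over the same groups and a log2 change of -1.99 in fed 3 h against unfed cells (SE 0.540, edgeR adjusted p 0.00605). The proline carrier Slc6a7 was not called in any comparison, at 0.869, 0.954 and 1.11 CPM. The genes under the filter included a vesicular carrier of neurons, Slc6a17, with 11, 36 and 12 summed counts in fed 24 h, fed 3 h and unfed cells, and Slc3a1, the renal heavy chain, with 12, 11 and 17. The arginine carrier Slc7a3 had 15, 7 and 2 summed counts, and the glutamate carrier Slc1a1 had 3, 5 and 3. None of these 4 was tested.

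Slc7a11, the cystine carrier xCT that pairs with Slc3a2, lies outside the set. It averaged 0.587 ± 0.0891 CPM in fed 24 h cells, 2.41 ± 0.125 CPM in fed 3 h cells and 0.983 ± 0.181 CPM in unfed cells (SD, n = 3 each). Its log2 change against unfed cells was 1.30 in fed 3 h cells (edgeR adjusted p 2.25e-05) and -0.74 in fed 24 h cells (edgeR adjusted p 0.0139), and the 24 h call was lost without fed 24 h replicate 2 or without unfed replicate 3 (adjusted p from 0.0105 to 0.0748 over 17 other settings). Of 15 tested amino acid carriers outside the set, Slc7a11 and mitochondrial and lysosomal carriers among them, 1 was higher and 5 lower in fed 24 h against unfed cells, and 4 were higher and 3 lower in fed 3 h against unfed cells. The mitochondrial aspartate and glutamate carrier Slc25a13 changed by -0.44 in fed 24 h cells, and the mitochondrial glutamate carrier Slc25a22 by 0.35 in fed 3 h cells.

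Genes of the ATF4 response other than transporters were split in direction. Of 23 tested, 5 were higher and 10 lower in fed 24 h against unfed cells (median log2 change -0.16), and 9 were higher and 5 lower in fed 3 h against unfed cells (median 0.12). Of all genes tested, 14.9% were called higher and 15.9% lower in fed 24 h against unfed cells. In fed 3 h against unfed cells the shares of all genes were 25.1% and 25.5%. Without fed 24 h replicate 1 the count of ATF4 response genes higher at 24 h was 3. Atf4 itself averaged 336 ± 14.5, 386 ± 9.06 and 306 ± 22.8 CPM in fed 24 h, fed 3 h and unfed cells (SD, n = 3 each), a log2 change of 0.33 in fed 3 h cells (edgeR adjusted p 9.24e-05) and 0.13 in fed 24 h cells (edgeR adjusted p 0.0733, from 0.0302 to 0.219 over 18 other settings). The 24 h change of Atf4 was 0.17 and called without fed 24 h replicate 2 or without unfed replicate 2. With all libraries kept, it was called with upper-quartile factors (0.15), the Wald test of DESeq2 (0.13) and the stricter filter (0.14). The stress genes Nupr1, Ppp1r15a and Ddit3 rose in fed 3 h cells, by 1.15, 0.94 and 0.60. The mTORC1 inhibitor Ddit4, the glutathione-degrading Chac1 and the leucine sensor Sesn2 fell there by 0.81, 0.27 and 0.24. In fed 24 h cells Ppp1r15a rose by 1.62, while the serine synthesis gene Psat1, the asparagine synthetase gene Asns and the mitochondrial serine enzyme gene Shmt2 fell by 0.54, 0.44 and 0.43.

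Of 17 tested enzymes that use imported amino acids, 2 were higher and 5 lower in fed 24 h against unfed cells, and 11 were higher and 3 lower in fed 3 h against unfed cells (medians -0.04 and 0.23). The shares of all genes called higher and lower were 14.9% and 15.9% at 24 h, and 25.1% and 25.5% at 3 h. Without fed 24 h replicate 1 the 24 h counts of enzymes were 1 and 3, without unfed replicate 3 the count higher was 1, and without unfed replicate 2 the count lower was 3. Odc1, which makes polyamines from ornithine, averaged 85.3 ± 1.95, 169 ± 3.08 and 123 ± 6.19 CPM in fed 24 h, fed 3 h and unfed cells (SD, n = 3 each), high at 3 h and low at 24 h as Slc7a1 was. Its log2 changes against unfed cells were -0.52 in fed 24 h cells and 0.47 in fed 3 h cells. The branched-chain aminotransferases split: the cytosolic Bcat1 changed by -0.48 in fed 24 h cells, and the mitochondrial Bcat2 by 0.18 in fed 24 h cells and -0.49 in fed 3 h cells. Glutamate-cysteine ligase Gclc rose by 0.72 in fed 3 h cells.

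Of 36 tested genes of mTORC1 amino acid sensing, 4 were higher and 3 lower in fed 24 h against unfed cells, and 8 were higher and 14 lower in fed 3 h against unfed cells (medians -0.00 and -0.08). At 24 h the count higher was 2 without unfed replicate 3, and the count lower was 1 without fed 24 h replicate 1 among other settings. Over 18 other settings the 24 h counts ran from 2 to 5 higher and from 1 to 3 lower. Folliculin (Flcn) and its partner Fnip2, which act on the Rag GTPases, rose by 0.73 and 1.01 in fed 3 h cells. The sestrins Sesn3 and Sesn1 and the GATOR1 subunit Nprl2 fell there by 0.83, 0.71 and 0.60. Among 8 regulators of transporter genes the test called 3 higher and 1 lower in fed 3 h against unfed cells. Myc, 1 of the 3, stood at 40.1 ± 3.78, 65.8 ± 4.36 and 34.8 ± 8.07 CPM in fed 24 h, fed 3 h and unfed cells (SD, n = 3 each; log2 change at 3 h 0.92, edgeR adjusted p 1.32e-05). In fed 24 h against unfed cells the edgeR test called 0 of the 8 at an adjusted p under 0.05 and 3 at an unadjusted p under 0.05, while the Wald test of DESeq2 called 1 (higher) and limma-voom 0. Over 18 other settings the count higher ran from 0 to 2, and 12 of them gave 0. The count was 2 without fed 24 h replicate 2 and 1 without unfed replicate 2. The shares of all genes called, given above, are the background for the counts of every list. The lists were chosen with earlier results of these data known, so their counts are given as a description.

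**Figure D5:**
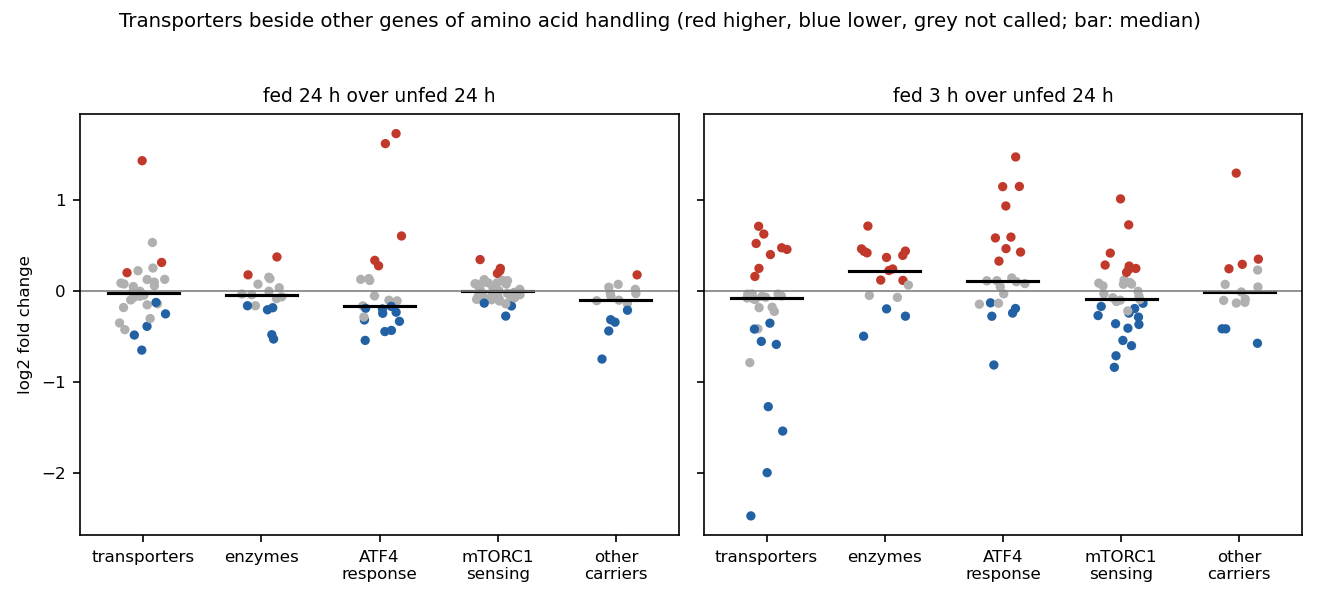
Log2 fold change of each tested gene among the transporters and in 4 lists around amino acid transport, in fed 24 h against unfed cells and fed 3 h against unfed cells. Points are genes, red where called higher, blue where called lower and grey where not called, and bars are medians. The ATF4 response genes have a median of -0.16 at 24 h and 0.12 at 3 h, and the enzymes of -0.04 and 0.23.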

How the data were processed

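RNA sequencing counts of 9 ST2 libraries in 3 groups of 3 (fed 24 h, fed 3 h, unfed 24 h) were analysed. The authors deposited raw read counts per mouse gene symbol, not normalized, with 1 column per library. The submitters' processing notes name MultiQC 1.7, featureCounts, Subread 1.6.4 and STAR 2.7.0f, and the builds GRCh38.p13 and GRCm38.p6. How the human genome entered was not given in the sources used here, nor was the strand setting. The labels and the series text name different library kits, 1 of them stranded, so the counts of genes that overlap a gene on the opposite strand are uncertain. Besides the genes named above, these include Slc43a2 (9.18% of exon length, Gm45606), Slc7a4 (13.3%, P2rx6) and Slc7a7 (7.0%, Oxa1l). Copies from PCR could not be removed.

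R 4.3.3 and edgeR 4.0.16 were used to test all genes in 1 fit of 9 libraries (quasi-likelihood F-test, TMM factors, filterByExpr, no term but the group), adjusted by Benjamini-Hochberg over 13568 genes. The common biological coefficient of variation was 0.0536. CPM are counts over the TMM-scaled library total, RPKM are CPM per kilobase of the joined exons of GENCODE M21 (GRCm38), which also gave the coordinates, and SE is that of the log2 fold change. A chi-square test of counts between replicates gave 5.46 to 16.1 per degree of freedom over all tested genes, above the 1 of counting noise, so no library was a copy of another. Over the transporter genes alone it averaged 1.52 to 17, lowest between fed 24 h replicates 1 and 3. Ratios within a library were compared by two-sided exact permutation tests, in 3 comparisons of each of 4 ratios, not adjusted.

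The genes described, the lists and the tests were chosen with earlier results of these data known. Values in every library are given for tested members called with a log2 change of at least 0.5 and a mean of at least 5 CPM, and for a fixed set of 18 further or overlapping members. Slc38a7, Slc38a10 and Slc43a1 are given in every library as well, though they meet neither rule. From each list up to 3 called genes per direction with a mean of at least 5 CPM could be named, with Slc7a11 and Atf4 in every comparison, and not every gene allowed is described. The values of 1 gene under the filter are not reported here. The alternatives were DESeq2 size factors, upper-quartile factors, the Wald test of DESeq2 1.42.0, limma-voom (limma 3.58.1), no filter, a stricter filter, a replicate block, the 6 libraries compared alone, removal of mitochondrial and ribosomal RNA linked genes, and leaving out each library. The edgeR script was tested on simulated data for fed 3 h against unfed cells, with changes in genes averaging over 5 CPM. It recovered 53 of 100 log2 changes of 0.25 in size and 100 of 100 of 0.5. Of 157 calls, 4 were false. Changes of 0.25 or smaller can therefore be missed.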

Additional observations from a re-analysis of the deposited data

Results flagged for a closer look

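For 6 transporter genes, the fed groups were called in opposite directions against the same unfed libraries and differed in a direct edgeR test. How many of all genes meet this rule was not counted, so the 6 are a description. Over all genes, 30.8% were called in fed 24 h and 50.6% in fed 3 h against unfed cells. The genes were picked with the direct test, which uses the same libraries. Opposite calls nearly fix its outcome, so it adds no separate support. The log2 change in fed 24 h against fed 3 h cells was -1.17 for the leucine exchanger Slc7a5, -0.96 for the creatine carrier Slc6a8, -0.94 for the arginine carrier Slc7a1, -0.86 for the glutamate carrier Slc1a6 and -0.37 for the light chain Slc7a6. For the arginine carrier Slc7a2 it was 0.73. The edgeR adjusted p of these differences ran from 4.60e-11 for Slc6a8 to 6.90e-07 for Slc7a6. For Slc7a6, the change in fed 24 h against unfed cells behind this pattern is small, -0.12, and was lost in 7 of 18 other settings.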

How the results depend on the processing

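No called direction among the transporter genes, Slc7a11 and Atf4 was reversed by any of the 18 alternatives. Over them, the count of transporter genes called in fed 24 h against unfed cells was 2 to 4 higher and 4 to 7 lower, in fed 3 h against unfed cells 7 to 9 higher and 5 to 10 lower, and in fed 24 h against fed 3 h cells 8 to 13 higher and 7 to 10 lower. Leaving out 1 library at a time gave 2 to 4 and 4 to 7, 7 to 9 and 7 to 9, and 11 to 13 and 7 to 10 in the same order. The stricter filter tested 22 of the genes and gave 5 lower in fed 3 h against unfed cells, against 8, and 8 higher in fed 24 h against fed 3 h cells, against 13. Among single genes and comparisons, 810 values kept their side of the threshold, 13 passed it and 7 lost it under the alternatives that keep all libraries, and 826, 14 and 24 did so when a library was left out. Over all genes, leaving out fed 24 h replicate 1 gave 1426 called lower in fed 24 h against unfed cells, against 2159.

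Replicates with the same number did not deviate together: the correlation of their deviations from the group means ran from -0.163 to 0.0578 over 9 pairs, and 1 of 9 libraries correlated best with a library of its own number. With the replicate number as a block the counts higher and lower were 3 and 4 in fed 24 h against unfed cells, 8 and 8 in fed 3 h against unfed cells and 13 and 7 in fed 24 h against fed 3 h cells. Depth limits Slc38a1, Slc6a2, Slc7a8 and Slc7a4, which averaged under 1 CPM in every group.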
